A study of Mus musculus with 16 samples.

Results

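The genes described here were the 3 PIM kinase genes Pim1, Pim2 and Pim3, the transcription factor genes Myc and Mycn, and Max, which encodes the DNA-binding partner of the MYC proteins. They were measured through every probe set that the array's probe-to-gene table gives to 1 of these genes alone. These are 6 of the 12394 genes that the table names in this way, and 11 of the 22690 probe sets on the array: 2 for Pim1, 1 for Pim2, 3 for Pim3, 1 for Myc, 3 for Mycn and 1 for Max. 8 of the 11 were tested, because at least 3 arrays gave them a deposited signal over 35.4, which is the 40th percentile of the whole table. 1 Pim3 probe set (1438956_x_at) and 2 Mycn probe sets (1425922_a_at and 1425923_at) exceeded that level on fewer than 3 arrays and were not tested.

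RNA was measured on 16 arrays, each of FVB/N background mice. 7 arrays held mammary tumours of mice with the STAT5ca transgene, a constitutively active form of STAT5, and 6 held mammary tumours of mice with the STAT5Δ750 transgene, a form of STAT5 truncated at its C-terminus. The other 3 arrays held normal mammary gland. The labels give neither the promoter of the transgenes, the age of the mice, the stage of the glands (virgin, pregnant or lactating) nor whether each tumour came from a separate mouse, so p-values measure the spread between these samples. Values for single arrays are always listed in the same order, which is STAT5ca_123, STAT5ca_124, STAT5ca_213, STAT5ca_159, STAT5ca_169, STAT5ca_171 and STAT5ca_177 for STAT5ca tumours, STAT5Δ750_254, STAT5Δ750_92, STAT5Δ750_165, STAT5Δ750_174, STAT5Δ750_178 and STAT5Δ750_160 for STAT5Δ750 tumours, and gland_1, gland_4 and gland_6 for gland. Signals are given in the units of the array scanner software after each array was scaled to the same median, and they rank arrays for 1 probe set but not probe sets against each other.

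PIM proteins are serine/threonine kinases that are active as soon as they are made, so that their activity follows the amount of their RNA and protein, and Pim1 is a long-known target of STAT5 downstream of cytokine receptors. MYC and MYCN are transcription factors that bind E-box sequences as dimers with MAX and raise genes of ribosome production, nucleotide supply and cell growth, while the MXD proteins and MNT compete for MAX and repress. In mice, Pim and Myc genes cooperate in lymphoma, and PIM kinases phosphorylate and stabilise MYC. In the mammary gland Myc is known for its part in the growth of alveolar epithelium and in tumours.

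The arrays differed in more than their labels. The summed luminal epithelial markers reached 1051 in tumour STAT5ca_177, and 22166 to 37107 in the 6 further STAT5ca tumours, and its macrophage markers summed to 52790, against 5948 to 14895. Results that involve STAT5ca tumours are therefore also given without it where that changes a call. Skeletal muscle markers summed to 574 to 9695 in STAT5ca tumours, 386 to 17810 in STAT5Δ750 tumours and 48694 to 64693 in gland, and the highest tumour value was that of STAT5Δ750_178. Of the markers tested, 10 of 10 muscle markers fell in STAT5ca and 9 of 10 in STAT5Δ750 tumours, 6 of 9 endothelial markers fell in each, and 3 and 1 of 7 basal markers fell. Summed luminal markers ran from 17242 to 32845 in STAT5Δ750 tumours and from 4658 to 10372 in gland. 1 of 9 luminal markers rose in STAT5ca and 3 of 9 in STAT5Δ750 tumours, but without STAT5ca_177 7 of 9 rose in each. Krt8, a keratin of luminal cells, had a log2 value of 5.37 in STAT5ca_177, 11.98 to 12.60 in the 6 further STAT5ca tumours and 9.46 to 10.63 in gland. Its change in STAT5ca tumours was 1.16 ± 1.14 (SE; limma adjusted p = 0.498) with that array and 2.16 ± 0.26 (SE; limma adjusted p = 3.66e-05) without it. Of 11 macrophage markers, 1 passed as higher in STAT5ca and 0 in STAT5Δ750 tumours, and without STAT5ca_177 1 was higher and 2 were lower in each. Of 8 fibroblast markers STAT5ca tumours had 1 higher and 2 lower and STAT5Δ750 tumours 1 higher and 1 lower. The ratio of 3' to 5' signal of beta-actin, a measure of RNA quality, was 1.76 to 5.38 in STAT5ca tumours, 1.27 to 3.52 in STAT5Δ750 tumours and 1.07 to 1.25 in gland. Every tumour ratio was above every gland ratio. Fits with this ratio as a covariate therefore cannot separate RNA quality from the difference between tumour and gland. In bulk tissue, fewer cells of a type and less RNA per cell cannot be told apart.

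3 members passed the test in at least 1 comparison with gland: Pim2 was lower in both tumour types, Max was lower in STAT5ca tumours, and Myc was higher in STAT5Δ750 tumours. In STAT5ca tumours against gland, 2 of the 8 tested probe sets passed by limma at an adjusted p under 0.05, both of them lower. Of all 15764 probe sets tested, 20.8% passed in that comparison and 7.80% passed as lower. In STAT5Δ750 tumours against gland, 1 of 8 was higher and 1 was lower, where 18.3% of all probe sets passed, 9.78% higher and 8.49% lower. Between STAT5ca and STAT5Δ750 tumours 0 of 8 passed, and 0% of all probe sets did. Both comparisons with gland share the same 3 gland arrays.

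**Figure D1:**
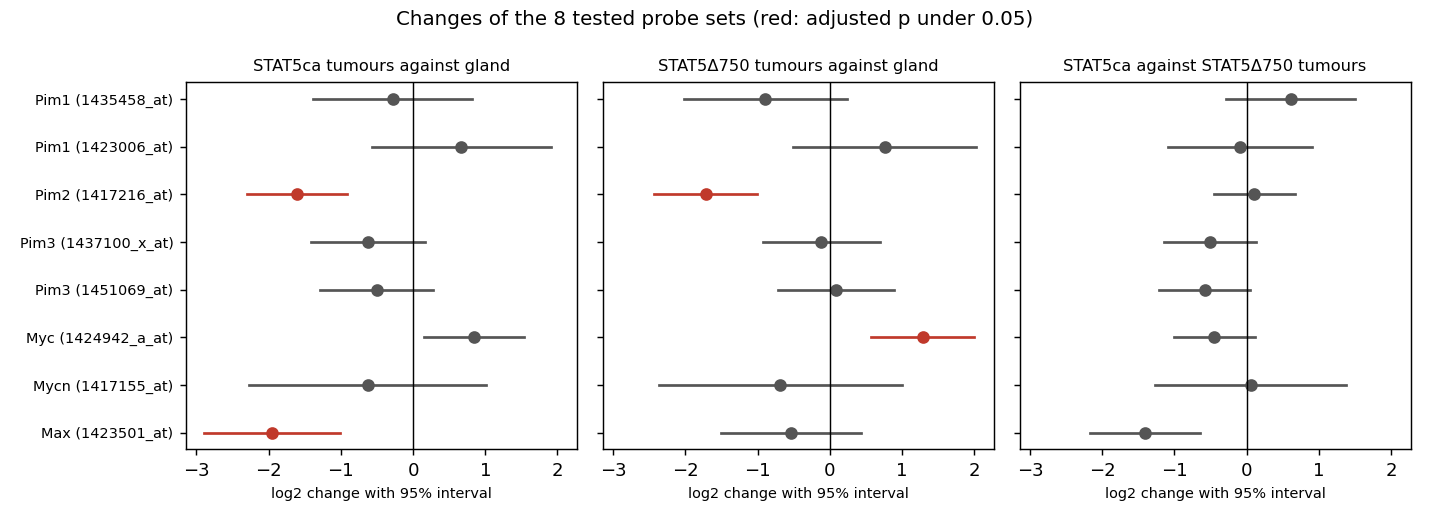
Log2 changes of the 8 tested probe sets with 95% intervals from limma, 1 panel for each comparison, with members down the page. Red points passed at an adjusted p under 0.05: Pim2 and Max left of 0 in STAT5ca tumours, and Pim2 left of 0 and Myc right of 0 in STAT5Δ750 tumours.

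Pim2, the PIM kinase gene best known from lymphoid cells, was about 3 times lower in both tumour types. The Pim2 signal was 75.5, 92.01, 52.2, 28.5, 83.9, 32.2 and 41.6 in the 7 STAT5ca tumours. It was 47.6, 58.9, 50.1, 54.8, 39.7 and 45.9 in the 6 STAT5Δ750 tumours, and 152, 294 and 129 in the 3 glands. Every tumour array lay below every gland array, and the STAT5Δ750 tumours were the most alike, with a coefficient of variation of 13.7%, against 44.4% among STAT5ca tumours and 46.6% among glands. The tumours were near the detection filter: the deposited signal was above 35.4 on 4 of 7 STAT5ca, 6 of 6 STAT5Δ750 and 3 of 3 gland arrays. Against gland, groups without overlap were found for 20.6% of all probe sets in STAT5ca tumours (6.80% with tumours lower) and for 31.5% in STAT5Δ750 tumours (12.5% with tumours lower). Pim2 averaged 58.0 ± 25.7 in STAT5ca tumours (SD, n = 7), 49.5 ± 6.79 in STAT5Δ750 tumours (SD, n = 6) and 191 ± 89.2 in gland (SD, n = 3). The log2 change was -1.61 ± 0.33 (SE; 3.05-fold lower; limma adjusted p = 0.00300) in STAT5ca tumours and -1.72 ± 0.34 (SE; 3.29-fold lower; limma adjusted p = 0.00276) in STAT5Δ750 tumours. Pim2 was lower than the gland mean in 7 of 7 STAT5ca and in 6 of 6 STAT5Δ750 tumours. With the actin ratio as a covariate the changes were -2.09 (limma adjusted p = 0.00200) and -1.95 (limma adjusted p = 0.000904) in STAT5ca and in STAT5Δ750 tumours. STAT5ca minus STAT5Δ750 tumours gave 0.11 (95% interval -0.45 to 0.67; limma adjusted p = 0.930).

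Lymphocyte markers moved with the groups in the direction of Pim2. Of 10 tested B and plasma cell markers, 10 fell in STAT5ca tumours and 9 in STAT5Δ750 tumours, and of 11 tested T and NK cell markers 10 and 11 fell. The summed B and plasma cell markers ran from 192 to 5129 in STAT5ca tumours, from 135 to 7902 in STAT5Δ750 tumours and from 6971 to 11069 in gland. The summed T and NK cell markers ran from 68.2 to 2024, from 77.9 to 1333 and from 2728 to 5057 in the same 3 groups. The list genes were at 0 on 0 of the 16 arrays, and Cd79a, a subunit of the B cell receptor, changed by -4.63 ± 0.92 (SE) in STAT5ca tumours and by -4.31 ± 0.95 (SE) in STAT5Δ750 tumours on the log2 scale. Among tumours the 2 measures were ordered alike in some arrays and not in others. STAT5Δ750_254 had the highest B and plasma cell sum of any tumour, 7902, and a Pim2 signal of 47.6. STAT5ca_124 had the next highest sum, 5129, and the highest Pim2 signal of any tumour, 92.01. STAT5Δ750_92 had the lowest sum, 135, and a Pim2 signal of 58.9. Over the 13 tumours Pim2 and the mean log2 of the B and plasma cell markers gave r = 0.26 (permutation p = 0.408, adjusted 0.927 over 90 relations) and rho = -0.08 (permutation p = 0.794, adjusted 0.909). Without the 2 arrays farthest from the Pim2 median r was -0.26. Within the tumour types r was 0.40 in STAT5ca and -0.21 in STAT5Δ750 tumours. Without STAT5ca_124 and STAT5Δ750_254, the tumours with the highest B cell sums of their groups, Pim2 was lower by a log2 change of -1.72 (limma adjusted p = 0.00270) in STAT5ca tumours and -1.71 (limma adjusted p = 0.00382) in STAT5Δ750 tumours. The glands, with their higher marker sums, stayed in this comparison, and STAT5ca_124 also had the highest Pim2 signal of the tumours. Leaving out these tumours therefore could not measure the part of the glands' lymphocytes in the Pim2 difference, which was not tested.

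**Figure D2:**
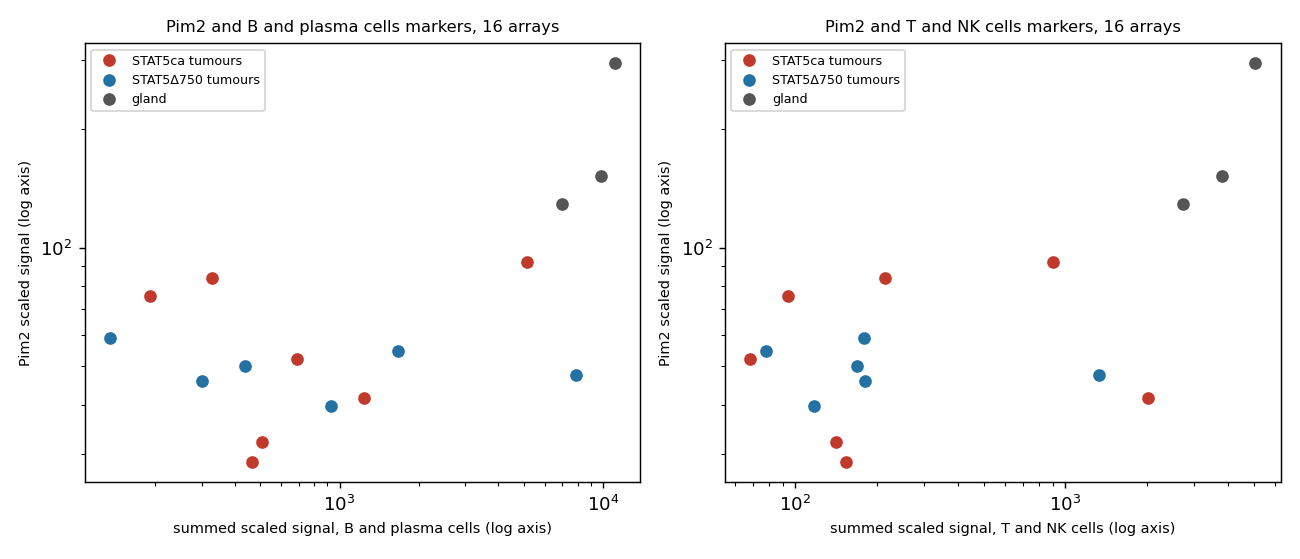
Scaled Pim2 signal (log axis) against the summed scaled signal of B and plasma cell markers (left, log axis) and of T and NK cell markers (right, log axis), 1 point per array. The 3 gland arrays are at the upper right in both panels, and tumours with marker sums from 135 to 7902 had Pim2 signals between 28.5 and 92.01.

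The promoter of Pim2 is printed because Pim2 is the member that was lower in both tumour types. The stretch is chrX:7878056-7878315 on the plus strand of GRCm38.p6 (RefSeq), which covers 250 bases before the annotated start and 10 after it. A window of 300 bases (250 before to 50 after each start) was searched on both strands for TTCNNNGAA, the core of STAT5 sites, and CACGTG, the E-box bound by MYC and MAX dimers. Pim2 held neither, so no letter is in capitals.
Pim2: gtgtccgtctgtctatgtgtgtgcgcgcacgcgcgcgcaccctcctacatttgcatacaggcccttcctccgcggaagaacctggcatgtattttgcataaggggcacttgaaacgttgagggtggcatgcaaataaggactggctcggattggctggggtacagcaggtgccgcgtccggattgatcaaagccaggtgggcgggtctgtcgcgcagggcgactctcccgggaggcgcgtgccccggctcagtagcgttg
RefSeq gave windows for 5 of the 6 genes, all but Myc, and 6 windows in all, since Pim1 has 2 annotated starts. TTCNNNGAA was found in 0 of the 6 windows, and in 8.30% of 32851 mouse promoter windows of the same length. At that share, 0 of 6 does not set these genes apart, and bases outside the windows were not searched. CACGTG was found in 2 of the 6, those of Max and of the second Pim1 start, and in 7.15% of all windows.

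Pim1, the founding PIM kinase gene, did not pass the test in either tumour type and varied widely among tumours. With the brighter probe set (1435458_at) the Pim1 signal was 187, 703, 433, 157, 129, 165.5 and 398 in the 7 STAT5ca tumours. It was 219, 289, 65.4, 128, 322 and 122 in the 6 STAT5Δ750 tumours, and 275, 310 and 373 in the 3 glands. STAT5ca tumours fell on both sides of the glands, with STAT5ca_124, STAT5ca_213 and STAT5ca_177 above all 3 of them and the other 4 below. Of the STAT5Δ750 tumours 4 lay below the lowest gland, and STAT5Δ750_165 was the lowest of all arrays. The highest STAT5ca tumour had 5.47 times the signal of the lowest, and among the glands this range was 1.35 times. The log2 change was -0.28 ± 0.52 (SE; 95% interval -1.39 to 0.82; limma adjusted p = 0.731) in STAT5ca tumours and -0.89 ± 0.53 (SE; 95% interval -2.02 to 0.24; limma adjusted p = 0.258) in STAT5Δ750 tumours. STAT5ca minus STAT5Δ750 tumours gave 0.61 (95% interval -0.28 to 1.498; limma adjusted p = 0.764).

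The dimmer Pim1 probe set (1423006_at) gave changes of the other sign, 0.67 (limma adjusted p = 0.440) in STAT5ca tumours and 0.76 (limma adjusted p = 0.397) in STAT5Δ750 tumours, and neither passed. Its signal was above 35.4 on 5 of 7 STAT5ca, 2 of 6 STAT5Δ750 and 0 of 3 gland arrays. It was 27.9, 45.5, 45.0, 37.4, 1.05, 42.4 and 48.2 in the STAT5ca tumours, 27.3, 61.9, 16.3, 14.1, 121 and 18.2 in the STAT5Δ750 tumours and 13.8, 12.2 and 23.5 in the glands. Apart from STAT5ca_169, at 1.05, all STAT5ca tumours lay above the glands. The log2 values of the 2 Pim1 probe sets correlated at r = 0.50 over all 16 arrays and at 0.64 over the 13 tumours, which is given as a description since probe sets of 1 gene share the sample. The promoter at the second annotated start of Pim1 is printed because it holds the E-box, which is in capitals and begins 58 bases before the start. It is chr17:29492835-29493094 on the plus strand of GRCm38.p6 (RefSeq).
Pim1: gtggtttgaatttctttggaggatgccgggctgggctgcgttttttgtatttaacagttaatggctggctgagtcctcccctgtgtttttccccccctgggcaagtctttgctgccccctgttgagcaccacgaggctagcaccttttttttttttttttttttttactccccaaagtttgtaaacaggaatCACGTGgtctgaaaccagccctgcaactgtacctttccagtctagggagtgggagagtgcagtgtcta

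Pim3, the PIM kinase gene studied mainly in tumours of liver, pancreas and colon, did not pass the test in either tumour type. With probe set 1437100_x_at the Pim3 signal was 548, 510, 364, 247, 647, 257 and 313 in the 7 STAT5ca tumours. It was 633, 404, 462, 290, 999 and 827 in the 6 STAT5Δ750 tumours, and 533, 641 and 632 in the 3 glands. STAT5Δ750_178 and STAT5Δ750_160 were above all other arrays, and all STAT5ca tumours but STAT5ca_123 and STAT5ca_169 were below the lowest gland. The log2 change was -0.62 ± 0.37 (SE; 95% interval -1.41 to 0.17; limma adjusted p = 0.254) in STAT5ca tumours and -0.12 ± 0.38 (SE; 95% interval -0.92 to 0.69; limma adjusted p = 0.860) in STAT5Δ750 tumours. Probe set 1451069_at changed by -0.50 (limma adjusted p = 0.355) and 0.08 (limma adjusted p = 0.903) in STAT5ca and in STAT5Δ750 tumours. These 2 probe sets correlated at r = 0.90 over 16 arrays and at 0.94 over the tumours. Between the tumour types they gave -0.50 (95% interval -1.14 to 0.13) and -0.58 (95% interval -1.21 to 0.05), with limma adjusted p = 0.734 and 0.703. The untested Pim3 probe set ran from 6.66 to 44.5 in STAT5ca tumours, from 5.05 to 12.3 in STAT5Δ750 tumours and from 8.85 to 10.97 in gland, and its correlation with 1437100_x_at was -0.08.

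Myc was higher in STAT5Δ750 tumours than in gland and did not pass in STAT5ca tumours. The Myc signal was 1258, 687, 960, 707, 655, 584 and 421 in the 7 STAT5ca tumours. It was 755, 1068, 1098, 686, 1706 and 830 in the 6 STAT5Δ750 tumours, and 540, 314 and 363 in the 3 glands. All 6 STAT5Δ750 tumours and 6 of 7 STAT5ca tumours lay above the highest gland, and the exception was STAT5ca_177. Groups without overlap, higher in tumours, were found for 19.0% of all probe sets in STAT5Δ750 tumours. Myc averaged 753 ± 275 in STAT5ca tumours (SD, n = 7), 1024 ± 373 in STAT5Δ750 tumours (SD, n = 6) and 406 ± 119 in gland (SD, n = 3). The log2 change was 1.29 ± 0.34 (SE; 2.44-fold higher; limma adjusted p = 0.0153) in STAT5Δ750 tumours. It was 0.84 ± 0.33 (SE; 95% interval 0.14 to 1.54; limma adjusted p = 0.0817) in STAT5ca tumours.

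The calls for Myc turned on single arrays and, in STAT5ca tumours, also on the scaling. In STAT5ca tumours without STAT5ca_177, the array with few luminal and many macrophage markers, the Myc change was 0.97 (limma adjusted p = 0.0294), which passed. Under the deposited scaling without STAT5ca_177 it did not pass, and over 31 alternatives it passed in 1. In STAT5Δ750 tumours the change was 1.12 (limma adjusted p = 0.0968) without gland 4 and 1.23 (limma adjusted p = 0.0592) without gland 6, and neither passed. The highest Myc signal, 1706, was that of STAT5Δ750_178, the tumour with the highest muscle marker sum, and without it Myc still passed. With the actin ratio as a covariate the change in STAT5Δ750 tumours was 1.20 (limma adjusted p = 0.0287). STAT5ca minus STAT5Δ750 tumours gave -0.45 (95% interval -1.01 to 0.12; limma adjusted p = 0.734) for Myc, so a difference between the tumour types was not shown.

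Mycn, the MYC family gene of the developing nervous system and other embryonic tissues, was near the detection filter. With probe set 1417155_at the Mycn signal was 3.37, 43.6, 127, 62.3, 78.5, 2.51 and 7.69 in the 7 STAT5ca tumours. It was 40.5, 74.0, 17.8, 53.2, 8.07 and 9.03 in the 6 STAT5Δ750 tumours, and 75.8, 49.6 and 27.6 in the 3 glands. The signal was above 35.4 on 4 of 7 STAT5ca, 3 of 6 STAT5Δ750 and 2 of 3 gland arrays, and the groups overlapped. The log2 change was -0.63 (95% interval -2.27 to 1.02; limma adjusted p = 0.597) in STAT5ca tumours and -0.69 (95% interval -2.37 to 0.998; limma adjusted p = 0.577) in STAT5Δ750 tumours, with intervals too wide to tell a rise from a fall. STAT5ca minus STAT5Δ750 tumours gave 0.06 (95% interval -1.27 to 1.38). The 2 untested Mycn probe sets were above 35.4 on 1 array of 16, STAT5Δ750_178, where 1425923_at read 47.1.

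Max was lower in STAT5ca tumours than in gland, and the tumour types stood further apart in Max than in the other members. The Max signal was 59.6, 50.5, 86.0, 74.8, 76.7, 41.2 and 19.3 in the 7 STAT5ca tumours. It was 300, 70.4, 92.5, 200, 119 and 302 in the 6 STAT5Δ750 tumours, and 183, 268 and 252 in the 3 glands. All 7 STAT5ca tumours lay below the lowest gland, whereas STAT5Δ750_254 and STAT5Δ750_160 were above the highest gland, STAT5Δ750_174 was within the glands' range and the other 3 were below it. Max averaged 58.3 ± 23.3 in STAT5ca tumours (SD, n = 7), 181 ± 103 in STAT5Δ750 tumours (SD, n = 6) and 235 ± 45.3 in gland (SD, n = 3). The log2 change was -1.95 ± 0.45 (SE; 3.87-fold lower; limma adjusted p = 0.00604) in STAT5ca tumours and -0.54 ± 0.46 (SE; 95% interval -1.51 to 0.43; limma adjusted p = 0.428) in STAT5Δ750 tumours. Without STAT5ca_177, where Max was lowest, it was -1.76 (limma adjusted p = 0.00466) in STAT5ca tumours, and with the actin ratio as a covariate it was -2.11 (limma adjusted p = 0.0248).

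The direct comparison of the tumour types did not pass for Max. STAT5ca minus STAT5Δ750 tumours gave -1.41 ± 0.36 (SE; 95% interval -2.17 to -0.65; 2.66-fold lower), with an unadjusted limma p of 0.00119 and an adjusted p of 0.659. By p-value it was rank 22 of 15764 probe sets in a comparison in which limma called 0, while 1132 had an unadjusted p under 0.05. 4 of the 7 STAT5ca tumours lay below the lowest STAT5Δ750 tumour, so the groups overlapped, and groups without overlap were found for 0.133% of all probe sets. A difference of Max between the tumour types was therefore not shown. The Max promoter is printed as that of the member lower in STAT5ca tumours and for its E-box, in capitals, which begins 3 bases before the annotated start. The stretch is chr12:76962239-76962498 of GRCm38.p6 (RefSeq), written 5′ to 3′ on the minus strand.
Max: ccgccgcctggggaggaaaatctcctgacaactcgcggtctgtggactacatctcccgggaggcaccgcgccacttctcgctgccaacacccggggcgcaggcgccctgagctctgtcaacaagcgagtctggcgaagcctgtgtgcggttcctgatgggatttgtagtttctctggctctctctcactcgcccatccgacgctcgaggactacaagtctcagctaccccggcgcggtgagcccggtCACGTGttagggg

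**Figure D3:**
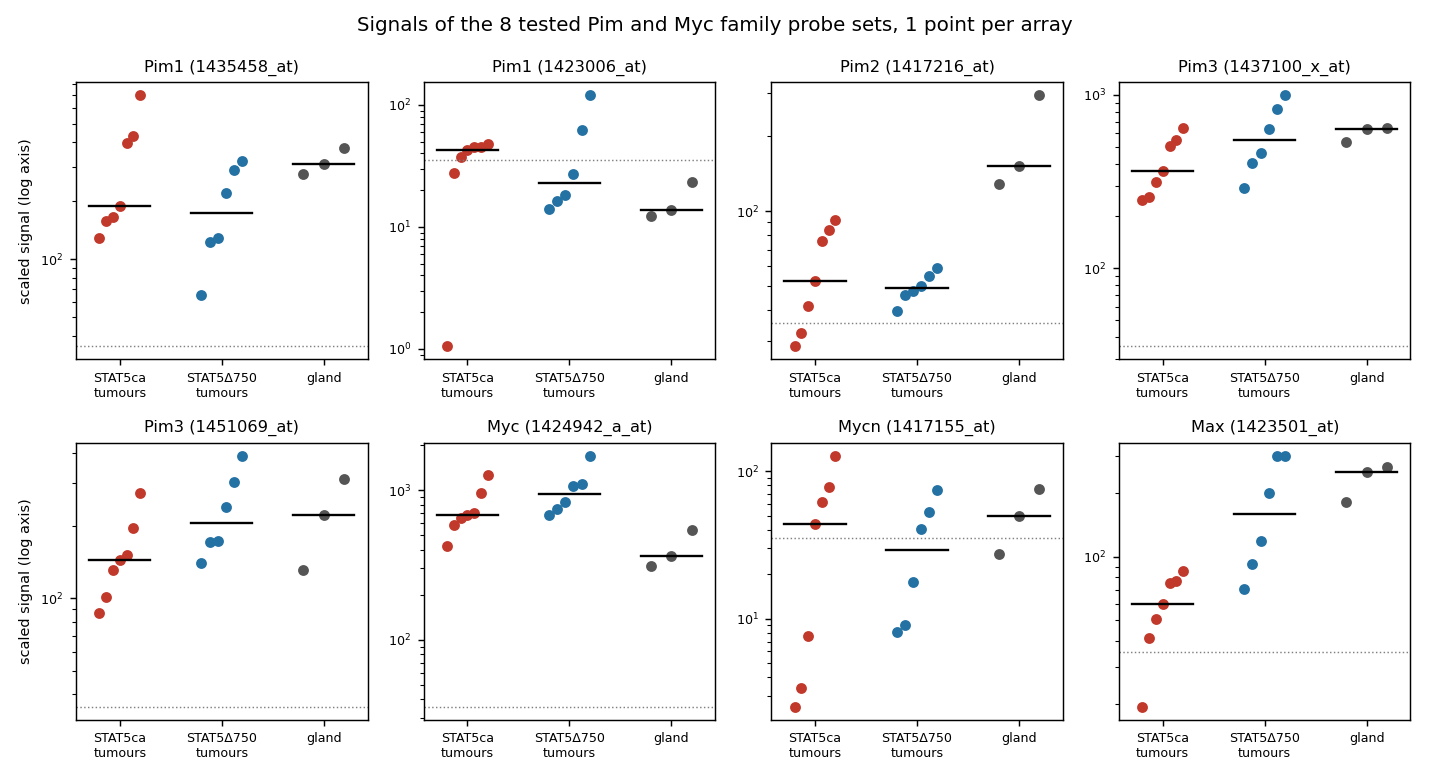
Scaled signal (log axes) of the 8 tested probe sets, 1 point per array, in STAT5ca tumours, STAT5Δ750 tumours and gland; black bars are group medians and the dotted line, where in range, is the filter at 35.4. Pim2 tumours lie below the glands in both tumour types, STAT5ca tumours below the glands for Max, and STAT5Δ750 tumours above the glands for Myc.

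No pair of members passed a test of correlation over the tumours. Over the 13 tumours, 0 of 15 pairs of members passed a permutation test of Pearson's r after adjustment, and 1 had an unadjusted p under 0.05. That pair was Pim3 and Myc, with r = 0.56 (permutation p = 0.0461, adjusted 0.691) and rho = 0.48 (permutation p = 0.100, adjusted 0.569). Without the 2 arrays farthest from the Pim3 median r was 0.35, and within the tumour types it was 0.40 in STAT5ca and 0.53 in STAT5Δ750 tumours. Pim2 and Pim3 ran together in STAT5ca tumours, with r = 0.97 (n = 7; exact permutation p = 0.00278, adjusted 0.0833 over 30 relations within types) and rho = 0.89 (exact permutation p = 0.0123, adjusted 0.167). In STAT5Δ750 tumours they ran in opposite directions, with r = -0.90 (n = 6; exact permutation p = 0.0194, adjusted 0.222) and rho = -0.94 (exact permutation p = 0.0167, adjusted 0.167). Neither passed after adjustment, the difference between the 2 coefficients was not tested, and without the 2 arrays farthest from the Pim2 median r was 0.99 over 5 STAT5ca arrays and -0.996 over 4 STAT5Δ750 arrays.

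The partners, regulators and targets of the members were read as lists of genes. For comparison, 2044 of all 15764 probe sets were higher and 1230 lower in STAT5ca tumours, with a median log2 change of 0.28, and 1541 were higher and 1338 lower in STAT5Δ750 tumours, with a median of 0.17. The balance in STAT5ca tumours turned with the scaling: 880 were higher and 1683 lower under the deposited scaling (median 0.00792), and 1419 higher and 1577 lower under quantile normalization (median 0.12). In STAT5Δ750 tumours 1199 were higher and 1740 lower under the deposited scaling, and 1628 higher and 1753 lower under quantile normalization.

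MAX network partners passed about as often as all probe sets did. The list held Mxd1, Mxi1, Mxd3, Mxd4, Mnt, Mga, Mlx, Mlxip, Mlxipl, Usf1, Usf2, Tfap4 and Zbtb17. Of 12 tested genes, 2 were called higher and 1 lower in STAT5ca tumours, and 1 higher and 1 lower in STAT5Δ750 tumours. These are 25.0% and 16.7% of the list, beside 20.8% and 18.3% of all probe sets. The median log2 change was 0.17 in STAT5ca and 0.15 in STAT5Δ750 tumours. With single arrays left out, the count of rises ran from 0 to 2 and that of falls from 0 to 1 in each tumour type. Mxi1, a MYC antagonist, rose by 0.71 ± 0.23 (SE; limma adjusted p = 0.0404) in STAT5ca tumours and by 0.74 ± 0.24 (SE; limma adjusted p = 0.0404) in STAT5Δ750 tumours. Mxd3, another antagonist found in dividing cells, rose by 1.71 ± 0.47 (SE; limma adjusted p = 0.0170) in STAT5ca tumours. Mlxipl, which encodes the glucose-responsive factor ChREBP of fat and liver, changed by -2.76 ± 0.86 (SE; limma adjusted p = 0.0321) in STAT5ca and by -3.57 ± 0.88 (SE; limma adjusted p = 0.0108) in STAT5Δ750 tumours. In STAT5ca_177 Mlxipl read 728, above the glands at 462 to 616, so STAT5ca tumours and glands overlapped. Adipocyte markers also fell, with 7 of 8 lower in each tumour type. Their sums were 1139 to 8787 in STAT5ca tumours, 1202 to 7858 in STAT5Δ750 tumours and 18759 to 19706 in gland. The sum was 2913 in STAT5ca_177, so the 2 measures went apart in that array. The part of adipocytes in the Mlxipl result was not tested. Mnt, the broadly expressed antagonist, changed by -0.03 (limma adjusted p = 0.958) and -0.25 (limma adjusted p = 0.627) in STAT5ca and in STAT5Δ750 tumours.

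Genes of MYC protein turnover and MYC cofactors were more often higher. Of 16 tested, 7 passed as higher and 1 as lower in STAT5ca tumours, and 5 and 1 did so in STAT5Δ750 tumours. That is 50.0% and 37.5% of the list, beside 20.8% and 18.3% of all probe sets. Median log2 changes were 0.75 and 0.50. Aurka, a mitotic kinase that also shields MYCN from degradation, rose by 1.98 ± 0.35 (SE; limma adjusted p = 0.00107) in STAT5ca and by 2.10 ± 0.35 (SE; limma adjusted p = 0.000928) in STAT5Δ750 tumours. Cip2a, an inhibitor of the phosphatase PP2A that protects MYC, rose by 1.68 ± 0.32 (SE; limma adjusted p = 0.00192) in STAT5ca and by 1.77 ± 0.33 (SE; limma adjusted p = 0.00186) in STAT5Δ750 tumours. Skp2, an F-box protein of MYC and p27 ubiquitination, rose by 1.62 ± 0.33 (SE; limma adjusted p = 0.00316) in STAT5ca and by 2.06 ± 0.34 (SE; limma adjusted p = 0.000865) in STAT5Δ750 tumours. Ppp2r5a, a PP2A subunit that directs the phosphatase to MYC, changed by -1.37 ± 0.25 (SE; limma adjusted p = 0.00153) in STAT5ca and by -1.57 ± 0.26 (SE; limma adjusted p = 0.000820) in STAT5Δ750 tumours. Aurka, Cip2a and Skp2 are also cell cycle genes. The count of rises in STAT5ca tumours was 4 under the deposited scaling, 3 with the actin ratio as a covariate, 3 without gland_1 and 4 without gland_6, and in STAT5Δ750 tumours it was 3 without gland_1 or gland_4.

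MYC target genes that passed were nearly all higher, in both tumour types. Of 35 tested, STAT5ca tumours had 13 rises and 1 fall and STAT5Δ750 tumours had 19 rises and 0 falls. Median log2 changes were 0.83 and 0.94. Of all probe sets, 20.8% passed in STAT5ca and 18.3% in STAT5Δ750 tumours. The list also holds the cell cycle genes Pcna, Cdk4, E2f1 and Cdc25a. The part of proliferation in the rises of this list was not tested. Pcna, the DNA polymerase clamp, had a signal of 2645 to 4817 in STAT5ca and 2577 to 3890 in STAT5Δ750 tumours. In gland it was 1432 to 1705, below every tumour array, while the tumour types overlapped each other. Groups without overlap against gland were found for 20.6% of all probe sets in STAT5ca and 31.5% in STAT5Δ750 tumours. Eif4a1, an RNA helicase of translation initiation, rose by 1.10 (limma adjusted p = 0.00156) in STAT5ca and by 1.26 (limma adjusted p = 0.000818) in STAT5Δ750 tumours. Apex1, a DNA repair endonuclease, rose by 1.502 (limma adjusted p = 0.00224) and by 1.34 (limma adjusted p = 0.00645) in STAT5ca and in STAT5Δ750 tumours. Ncl, the nucleolar protein nucleolin, rose by 0.98 (limma adjusted p = 0.00917) in STAT5ca and by 0.90 (limma adjusted p = 0.0186) in STAT5Δ750 tumours. Odc1, the polyamine enzyme and a textbook MYC target, changed by 0.31 (limma adjusted p = 0.511) and by 0.50 (limma adjusted p = 0.300) and did not pass in either. The single fall was that of the D cyclin gene Ccnd2 in STAT5ca tumours, a log2 change of -2.43 (limma adjusted p = 0.0108), a gene outside the naming rule. Under the deposited scaling 8 rose in STAT5ca tumours and 14 in STAT5Δ750 tumours, and with the actin ratio as a covariate 3 and 13 rose. 1 fell in STAT5Δ750 tumours under some alternatives, the deposited scaling, quantile normalization and leaving out STAT5ca_177 among them. The count in STAT5Δ750 tumours was 8 without any 1 of the 3 glands, and 12 without STAT5Δ750_165 or STAT5Δ750_178.

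Myc and its targets varied together among tumours, without passing the adjustment. Over 13 tumours the Myc signal and the mean log2 value of the MYC target genes gave r = 0.70 (permutation p = 0.00810, adjusted 0.379 over 90 relations of members and lists) and rho = 0.80 (permutation p = 0.00160, adjusted 0.144). Without the 2 arrays farthest from the Myc median r was 0.82, and it was 0.74 within STAT5ca and 0.69 within STAT5Δ750 tumours. STAT5ca_123, STAT5ca_124 and STAT5ca_213 had target means of 9.95, 9.70 and 9.92 at actin ratios of 3.72, 5.38 and 5.23. The other STAT5ca tumours had 8.90 to 9.24 at ratios of 1.76 to 2.53. The mean was 9.74 at 3.52 in STAT5Δ750_92, but 9.85 at 1.27 in STAT5Δ750_165 and 9.66 at 1.33 in STAT5Δ750_178. The part of RNA quality in this relation was not tested. With macrophage markers Myc gave r = -0.70 (permutation p = 0.00843, adjusted 0.379) and rho = -0.58 (permutation p = 0.0397, adjusted 0.596), with -0.45 without the 2 farthest arrays and -0.80 and -0.55 within STAT5ca and STAT5Δ750 tumours. 0 of the 90 relations passed, and 7 had an unadjusted permutation p under 0.05.

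**Figure D4:**
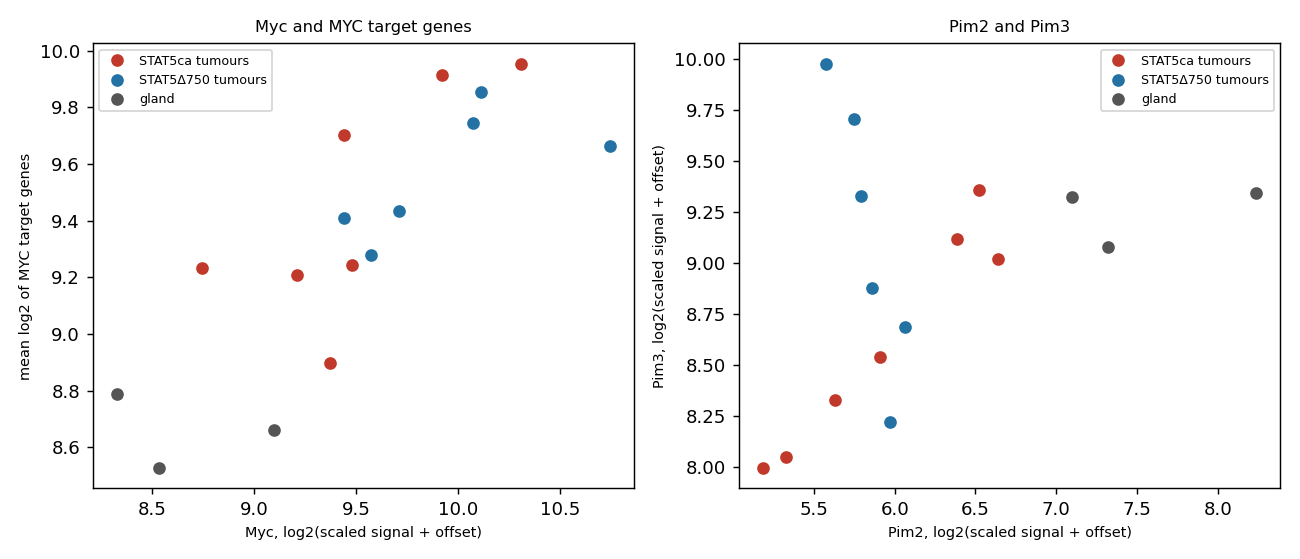
Left, mean log2 value of the MYC target genes against the log2 value of Myc; right, log2 values of Pim3 (1437100_x_at) against Pim2, both as log2(scaled signal + 7.9) with 1 point per array. Over the 13 tumours r was 0.70 on the left; on the right it was 0.97 in STAT5ca and -0.90 in STAT5Δ750 tumours.

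PIM substrates and partners also passed about as often as all probe sets did. Of 21 tested, 5 passed in STAT5ca tumours and 4 in STAT5Δ750 tumours, and each of them as higher, with median log2 changes of 0.30 and 0.39. These are 23.8% and 19.0% of the list, beside 20.8% and 18.3% of all probe sets. Under some alternatives a fall was also counted, such as 1 in STAT5ca tumours under the deposited scaling, 1 in STAT5Δ750 tumours under quantile normalization and 1 in each without STAT5ca_177. Bad, the cell death gene whose protein PIM kinases silence by phosphorylation, had a signal of 208 to 376 in STAT5ca tumours, 171.2 to 249 in STAT5Δ750 tumours and 80.6 to 95.7 in gland. Every tumour array lay above every gland array for Bad, while the tumour types overlapped each other. Against gland, groups without overlap were found for 20.6% of all probe sets in STAT5ca and 31.5% in STAT5Δ750 tumours. Bad rose by 1.46 ± 0.20 (SE; limma adjusted p = 0.000146) in STAT5ca and by 1.17 ± 0.20 (SE; limma adjusted p = 0.00112) in STAT5Δ750 tumours. Cdc25c, a phosphatase of mitotic entry, rose by 2.49 (limma adjusted p = 0.00153) in STAT5ca and by 2.44 (limma adjusted p = 0.00238) in STAT5Δ750 tumours. The glands read 1.26 to 16.5 for Cdc25c, under the filter of 35.4, so it was kept through tumour arrays alone. Snd1, a transcriptional coactivator that binds PIM1, rose by 1.35 (limma adjusted p = 0.00647) and by 1.15 (limma adjusted p = 0.0203) in STAT5ca and in STAT5Δ750 tumours. Cdkn1b, which encodes the cell cycle inhibitor p27, changed by 0.13 (limma adjusted p = 0.855) in STAT5ca and by -0.37 (limma adjusted p = 0.575) in STAT5Δ750 tumours. The count in STAT5ca tumours was 3 under the deposited scaling, with the actin ratio or without any 1 gland, and that in STAT5Δ750 tumours was 2 without gland_1 or gland_4.

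STAT5 targets and cytokine signalling genes went both ways. Of 17 tested, there were 3 rises and 1 fall in STAT5ca tumours and 1 rise and 4 falls in STAT5Δ750 tumours. That is 23.5% and 29.4% of the list, beside 20.8% and 18.3% of all probe sets. Median log2 changes were -0.36 and 0.08. Ccnd1, the G1 cyclin gene, rose by 2.87 (limma adjusted p = 0.00581) in STAT5ca and by 2.33 (limma adjusted p = 0.0236) in STAT5Δ750 tumours. In STAT5ca_123 Ccnd1 read 579, within the glands' range of 350 to 709, and the other STAT5ca tumours read 2254 to 6381. Igf1, the growth factor gene and a STAT5 target in liver, changed by -2.11 (limma adjusted p = 0.00128) and by -2.09 (limma adjusted p = 0.00191) in STAT5ca and in STAT5Δ750 tumours. The feedback inhibitor genes Cish and Socs2 did not pass, with changes of -0.36 (limma adjusted p = 0.649) and 0.05 (limma adjusted p = 0.977) in STAT5ca tumours and -0.26 (limma adjusted p = 0.763) and 0.99 (limma adjusted p = 0.539) in STAT5Δ750 tumours. The other falls in STAT5Δ750 tumours were those of Stat5b (-1.28; limma adjusted p = 0.0199), Bcl6 and Jak2, the last 2 named after their values were seen. The 3 rises in STAT5ca tumours became 1 under the deposited scaling or without gland_1 or gland_4 and 0 with the actin ratio, and the 4 falls in STAT5Δ750 tumours became 1 without gland_1 or gland_4 and 2 without STAT5Δ750_254, STAT5Δ750_92 or STAT5Δ750_165. The single rise in STAT5Δ750 tumours became 0 without gland_4 or gland_6 and 2 without STAT5ca_177. Proliferation genes rose: 14 of 14 in STAT5ca and 13 of 14 in STAT5Δ750 tumours, with median log2 changes of 1.93 and 1.85, and 7 of 14 in STAT5ca tumours with the actin ratio as a covariate. Mki67, the marker of cycling cells, rose by 1.89 (limma adjusted p = 0.00546) in STAT5ca and by 1.58 (limma adjusted p = 0.0197) in STAT5Δ750 tumours. Between the tumour types 0 genes of any of the 6 pathway lists passed.

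**Figure D5:**
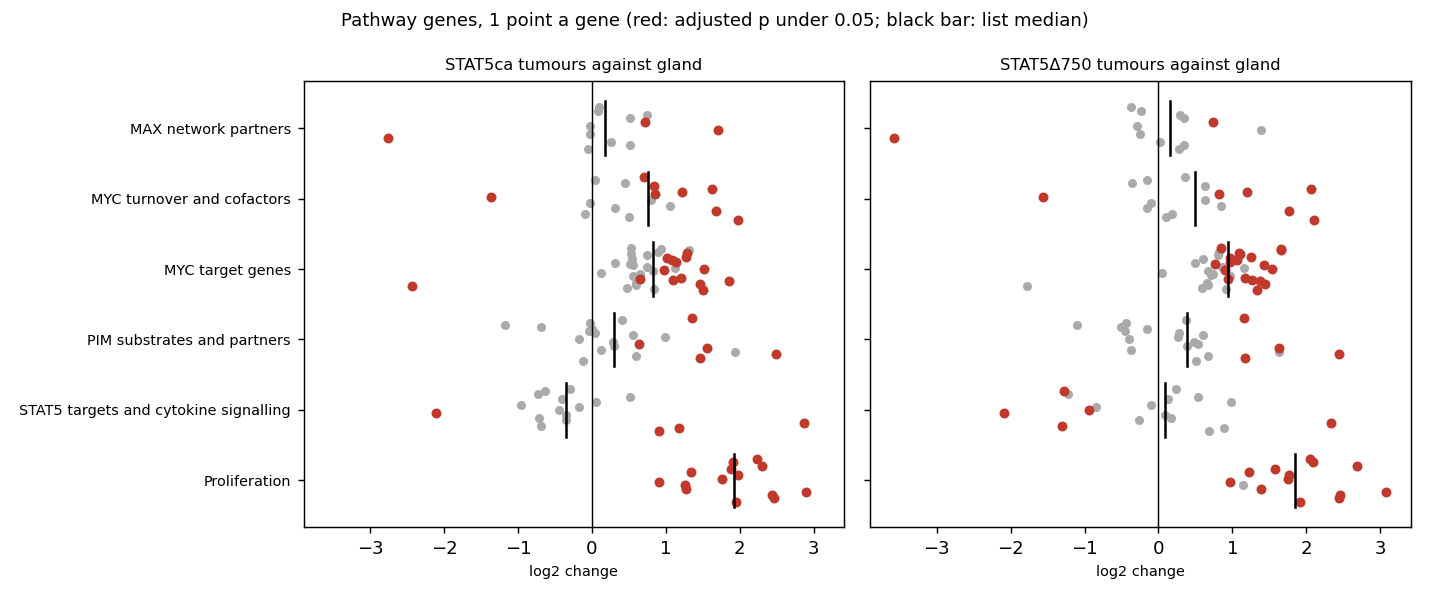
Log2 changes of the genes of the 6 pathway lists, 1 point per gene, in STAT5ca tumours (left) and STAT5Δ750 tumours (right) against gland; red points passed limma at an adjusted p under 0.05 and black bars are list medians. Proliferation genes had medians of 1.93 and 1.85, and MYC target genes of 0.83 and 0.94.

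The genes with patterns most like those of the members were found over the 13 tumours after the mean of each tumour type was subtracted, among 9260 other genes, and are given with no test. For Myc they were Eif4b (r = 0.89), Sars (0.88) and Mpi (0.88), a translation factor, a seryl-tRNA synthetase and a mannose phosphate isomerase. Eif4b was itself in the list of PIM substrates and partners. For Pim1 they were Fbxw4, Bcl7b and Gpr180 (r = 0.91 each), for Pim2 Metrn (0.93), Sap30l (0.93) and Trim11 (0.91), and for Pim3 Adcy8 (0.81), Carns1 (0.79) and Lmbr1l (0.79). For Max they were Cldn2 (0.83), Tspan1 (0.81) and Snorc (0.81), and for Mycn Wee1 (0.90), Usp33 (0.88) and Chac2 (0.85).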

How the data were processed

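Biotinylated cRNA from total RNA was hybridised to Affymetrix Mouse Genome 430A 2.0 arrays. The deposited values are linear intensity signals, 1 for every probe set on each array. The submitters' processing notes name MAS5, with the version not given in the sources used here. Deposited array medians ran from 57.3 to 90.7, and each array was scaled to a median of 75.9. Values entered the tests as log2(scaled signal + 7.9), where 7.9 is the 20th percentile of the deposited values, so changes of dim probe sets are understated. Probe sets above 35.4 on at least 3 arrays were kept, 15764 of 22690.

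The 3 groups were taken from the labels and fitted in 1 limma 3.58.1 model (R 4.3.3), with 13 residual and 3.11 prior degrees of freedom, two-sided tests and Benjamini-Hochberg adjustment over all kept probe sets in each comparison at 0.05. Symbols come from the platform annotation: 20393 probe sets carry 1 symbol, 691 several and 1606 are unnamed here. A gene of a list was read from the brightest of its kept probe sets (mean log2 value). Correlations were tested with 100000 permutations, or exactly within a tumour type. The procedure was tested on simulated data. The number of arrays limits the precision.

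The members, the lists (MAX network partners, MYC turnover and cofactors, MYC target genes, PIM substrates and partners, STAT5 targets and cytokine signalling, proliferation, and markers of 9 cell types) and the tests were chosen with earlier results of these data known. The text names all member probe sets, up to 3 genes of a list with the smallest adjusted p among those that passed, a few genes fixed by name and the 3 genes most like each member. The alternatives were the deposited scaling, quantile normalization, centring on the median log2 value, an offset of 1 or at the 40th percentile, no filter or one at the 60th percentile, 1 probe set a gene, limma with trend and robust, array weights, a fit of the 2 compared groups alone, actin or Gapdh 3'/5' ratios as covariates and leaving out each array in turn. 2 were chosen after seeing the data: leaving out STAT5ca_124 with STAT5Δ750_254, and the deposited scaling without STAT5ca_177. So were the alternatives for the cell type markers and Krt8. Promoter sequences are from RefSeq, and figures were drawn with matplotlib 3.10.9.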

Additional observations from a re-analysis of the deposited data

Results flagged for a closer look

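Each member probe set was checked for a single array that stood far from the rest of its group, in the 22 groups of tumour arrays. Chance picks out about 1 in 20 groups, and 2 of 22 were picked out here. The dimmer Pim1 probe set (1423006_at) read 1.05 in tumour STAT5ca_169, where the next lowest STAT5ca tumour was at 27.9 and the highest at 48.2. The brighter Pim1 probe set read 129 in the same tumour, the lowest of the 7 STAT5ca tumours. Without STAT5ca_169 the change of 1423006_at in STAT5ca tumours was 1.02 (limma adjusted p = 0.129) against 0.67 with it. The untested Pim3 probe set (1438956_x_at) read 44.5 in tumour STAT5ca_177, where the next highest was at 11.8, while the tested Pim3 probe sets read 313 and 131 there, within the range of the other STAT5ca tumours.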

How the results depend on the processing

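Over 31 alternatives, Pim2 passed in all in both tumour types (limma adjusted p up to 0.0364 in STAT5ca and 0.0331 in STAT5Δ750 tumours), and Max in all in STAT5ca tumours (up to 0.0397). Myc passed in 29 of 31 in STAT5Δ750 tumours (adjusted p 0.00299 to 0.0968) and in 1 of 31 in STAT5ca tumours (0.0294 to 0.294), with the exceptions named above. Of 732 member values, 28 changed sign, each in a comparison in which that probe set had not passed. Between tumour types these were, under the deposited scaling, Pim2 -0.0359 and Mycn -0.0346; under array weights, Pim1 (1423006_at) 0.0656 and Pim2 -0.0275; with the actin ratio, Pim2 -0.14 and Mycn -0.49; with the Gapdh ratio, Pim2 -0.11 and Mycn -0.11; with an offset of 1, Mycn -0.14; and without STAT5ca_124 and STAT5Δ750_254, Pim2 -0.0160. Against gland, Pim3 (1451069_at) in STAT5Δ750 tumours gave -0.0459 under the deposited scaling, with or without STAT5ca_177, and -0.00195 under quantile normalization. Leaving out 1 array gave, between tumour types, Pim1 (1423006_at) -0.26 to 0.26, Pim2 -0.00796 to 0.23 and Mycn -0.26 to 0.36, and in STAT5Δ750 tumours against gland Pim3 -0.28 to 0.0667 (1437100_x_at) and -0.24 to 0.36 (1451069_at). Among tumours, the correlation of Pim1 and Pim3 changed sign, to -0.0810 with the deposited scaling and to -0.0367 with quantile normalization. So did the correlation of Pim2 and Max (0.12) and the correlation of Myc and Mycn (0.0135) under the deposited scaling, the correlation of Pim2 and Myc under quantile normalization (-0.14) and the correlation of Pim1 and Myc without STAT5ca_177 (0.12). The cause was not tested.

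The counts over all probe sets moved more. They were 3274 in STAT5ca and 2879 in STAT5Δ750 tumours, 2154 and 1823 with 1 probe set a gene (fewer tests), 8024 and 8034 with array weights, whose fit stopped before its tolerance, 4537 in STAT5Δ750 tumours with only the arrays of the 2 groups, and 1992 in STAT5ca tumours with the actin ratio. Leaving out 1 array gave 1642 (without gland 4) to 4491 (without STAT5ca_177) in STAT5ca tumours, 1203 (without gland 4) to 3821 in STAT5Δ750 tumours, and 0 to 1 between tumour types (1 without STAT5ca_123 or STAT5ca_169). Higher and lower calls in STAT5ca tumours were 2044 and 1230, against 880 and 1683 under the deposited scaling. The cause was not tested. No paired analysis was possible because the groups share no replicate numbers in the labels. With 3 gland arrays and tumours this varied, a missed call does not show that a member was unchanged, and signals near 7.9 carry little on change.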
